A study of Mus musculus with 8 samples.

Results

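The transcriptome of line 32, a mouse induced pluripotent stem cell (iPSC) line, was compared with that of R1, a mouse embryonic stem cell (ESC) line, by RNA-Seq of polyadenylated RNA. The comparison used 4 of the 8 libraries of the series, namely the 2 libraries labelled 32 and the 2 labelled R1, and it covered the 13247 of 22878 gene entries that reached an FPKM of 1 in at least 1 of these 4 libraries. FPKM is a fragment count scaled to transcript length and sequencing depth, and all FPKM given here are the deposited values divided by one common constant. The other 4 libraries came from the iPSC lines 16-6 (2 libraries), S8 (1 library) and T2 (1 library). In the study's read counts, S8 and T2 had more reads than the other lines, and a smaller share of their reads mapped uniquely.

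Line 32 is a secondary iPSC line. It was reprogrammed from adipocyte progenitors, obtained from the stromal vascular fraction of inguinal fat, of 8-week-old mice grown wholly from an earlier iPSC line and carrying doxycycline-inducible Oct4, Sox2, Klf4 and c-Myc. R1 was derived from an embryo and carries no such factors. The labels describe the source of R1 as ES cells and that of 32 as second generation iPS cells. According to the study's methods, all lines were grown on mitomycin C-treated mouse embryonic fibroblasts as feeder cells, in medium with serum and leukemia inhibitory factor (LIF), so both groups share the feeder layer. Whether feeder cells were removed before RNA extraction is not given in the sources used here. Line 32 is 1 line. The methods call the repeated libraries of a line biological replicates, but neither they nor the labels say whether these came from separate cultures, so p-values measure only the spread between these libraries. The comparison asks how far the iPSC transcriptome differed from that of an ESC line and whether genes of the tissue of origin stood out.

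Pluripotent stem cells are held in their state by a network of transcription factors around Oct4 (gene Pou5f1), Sox2 and Nanog, with LIF acting through STAT3. Fibroblasts, in contrast, secrete and cross-link an extracellular matrix of collagens, microfibrils, proteoglycans and adhesive glycoproteins, and respond to injury with chemokines and cytokines. Adipocyte progenitors are stromal cells of fat that share many of these matrix and receptor genes with fibroblasts.

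The confidence limits in the files implied, in units of 1000000 fragments, totals of 15.5 and 16.4 for the R1 libraries and 16.1 for each library of 32. An FPKM near 1 rested on about 30 fragments. The upper quartile of the 4 libraries lay between 16.29 and 17.61 FPKM, but the summed FPKM was higher in 32 (1259522 and 1214859) than in R1 (949514 and 1008703). Genes with a locus shorter than 200 bases, mostly small RNA genes, held 32.9% and 31.7% of the sum in 32 and 25.0% and 27.3% in R1. Replicate libraries differed by 2-fold or more on the log2(FPKM + 1) scale in 126 genes for R1 and in 123 genes for 32.

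A gene was called lower or higher when limma gave a Benjamini-Hochberg adjusted p below 0.05 over all tested genes together with an absolute log2 difference of at least 1, where differences are 32 minus R1 on the log2(FPKM + 1) scale and so understate the change of low genes. By this rule 1131 genes (8.54%) were lower in 32 and 212 (1.60%) were higher. All of them had non-overlapping groups. Both libraries of 32 lay below both libraries of R1 in 42.9% of tested genes and above them in 39.0%. With 2 libraries against 2, an exact permutation test cannot give a p below 0.33 for a single gene, so the calls rest on the spread that limma shares across genes. The median difference was -1.46 among lower genes and 1.22 among higher genes, against -0.02 over all tested genes. A difference of at least 3 was reached by 87 lower and 15 higher genes. At the threshold, 169 called genes lay between -1.1 and -1 while 233 genes with an adjusted p below 0.05 lay between -1 and -0.9. On the higher side, 59 lay between 1 and 1.1 and 75 between 0.9 and 1.

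The balance of lower and higher genes depended on level. Among genes whose higher line had a mean of 2 to 5 FPKM, 332 of 1969 were lower and 38 were higher, with a median difference of -0.30. Among those above 100 FPKM, 45 of 1499 were lower and 34 were higher, with a median of 0.28. The balance also depended on scaling. Lower genes made up 84.2% of the calls on the values as deposited, 94.6% (1678 lower, 95 higher) when every library was scaled to the same total, and 66.3% (762 lower, 388 higher) after quantile normalization. Scaling to the same total moved the median difference of all tested genes from -0.02 to -0.32.

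**Figure D1:**
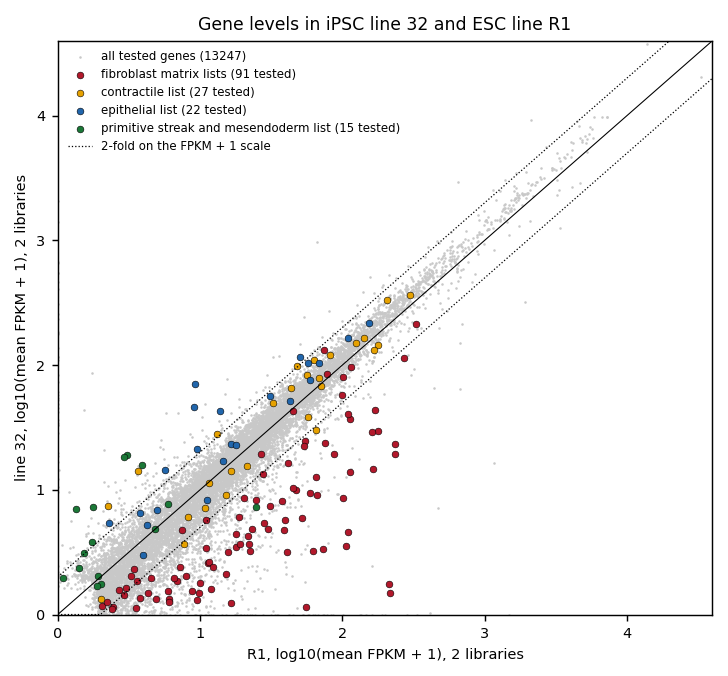
Mean level of each of the 13247 tested genes in R1 (horizontal axis) and line 32 (vertical axis), both as log10(mean FPKM + 1) over 2 libraries, with the solid line marking equal levels and the dotted lines a 2-fold difference. Most of the 91 fibroblast matrix genes (red) lie below the lower dotted line, and members of the epithelial (blue) and primitive streak (green) lists make up most of the coloured points above the upper one.

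Genes were grouped in lists by function. Counts of called members are to be read against the 8.54% lower and 1.60% higher over all tested genes. In addition to the leading members of each list, which a rule selected, members were named here after their values had been seen. The 5 lists of fibroblast matrix genes held 99 genes in the files, of which 91 were tested. Of these, 74 were lower in 32, and 17 did not pass. None was called higher. Of the genes above R1, 1 (Ctgf) had a limma adjusted p below 0.05 but stayed under the fold minimum. The median difference was -2.11, against -0.02 over all tested genes. The summed level of the 99 genes was 4751 and 4965 FPKM in the libraries of R1 and 1363 and 1366 in those of 32. Because these are bulk samples, fewer fibroblast-like cells and less matrix RNA per cell cannot be told apart. No member was at 0 in all 4 libraries, and in the other lines the sum was 9403 and 9414 (16-6), 2339 (S8) and 2988 (T2). The part of feeder cells in the result was not tested.

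Of 16 tested collagen genes, 13 were lower. Col3a1, a fibrillar collagen of soft connective tissue, had 102.6 and 108.7 FPKM in R1 and 2.49 and 2.61 in 32, a log2 difference of -4.91 ± 0.05 (SE, limma, Benjamini-Hochberg adjusted p = 7.00e-07). Col6a1, Col6a2 and Col6a3, the chains of the beaded-filament collagen VI, differed by -4.56, -4.44 and -3.69. Col1a1 and Col1a2, which form the main collagen of skin, tendon and bone, were still measurable in 32. Col1a1 fell from 174.4 and 180.1 FPKM in R1 to 29.1 and 27.8 in 32, and Col1a2 from 152.5 and 172.6 to 13.6 and 13.7. For both, the groups were far apart relative to the replicates. The 3 members that did not pass included Col18a1, a basement membrane collagen with 97.3 and 103.1 FPKM in R1 and 80.6 and 77.2 in 32.

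Elastic fibre and microfibril genes were lower in 16 of 17 cases. Fbn1, the main microfibril protein, had 26.2 and 28.3 FPKM in R1 and 4.51 and 4.34 in 32 (-2.38 ± 0.06). Ltbp2, Emilin2 and Ltbp3, which bind microfibrils or latent TGF-beta, differed by -2.84, -2.72 and -2.50. Ltbp4 was the exception, with 42.3 and 45.2 FPKM in R1 and 42.2 and 41.7 in 32.

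Among the small leucine-rich proteoglycans, which coat collagen fibrils, 4 of 8 tested genes were lower. Dcn (decorin, chromosome 10) held the second largest matrix difference, with 216.5 and 204.0 FPKM in R1 and 0.60 and 0.89 in 32, or -6.92 ± 0.09 (limma, adjusted p = 1.21e-06). Lum (lumican) had 50.6 and 59.2 in R1 and 0.16 and 0.13 in 32, and Bgn (biglycan) 231.8 and 235.7 against 21.2 and 23.6. Decorin and lumican were thus near the detection limit in 32, whereas biglycan was not. Vcan (versican), a large proteoglycan placed in the same list, differed by -0.46 and did not pass.

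Adhesive and matricellular genes were lower in 12 of 18 cases. Thbs2, which encodes a thrombospondin, had 57.1 and 64.4 FPKM in R1 and 2.30 and 2.17 in 32 (-4.25 ± 0.07). Tnc (tenascin C) had 225.2 and 238.6 in R1 and 18 and 18.9 in 32 (-3.58 ± 0.05), and Tgfbi differed by -3.02. The list was not uniform. Fn1 (fibronectin) had 324.9 and 334.6 FPKM in R1 and 207.3 and 213.6 in 32, below the 2-fold minimum at -0.65. Ctgf and Cyr61, matricellular genes known as targets of YAP, lay above R1 in both libraries of 32. Ctgf had 73.7 and 73.5 FPKM in R1 and 127.8 and 135.6 in 32 (0.83 ± 0.05), and neither gene reached the fold minimum. Cyr61 (0.11) turned negative with libraries scaled to the same total (-0.23) and after quantile normalization (-0.05).

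Processing enzymes and inhibitors were lower in 29 of 32 cases, and they held the largest difference among the matrix genes. Mmp3 (stromelysin), a matrix metalloproteinase, had 202.1 and 230.0 FPKM in R1 and 0.71 and 0.25 in 32, or -7.21 ± 0.15 (limma, adjusted p = 3.77e-06). Mmp13, a collagenase, had 13.7 and 17.2 in R1 and 0.23 in each library of 32. Serpinf1 and Mmp2 differed by -3.57 and -3.15. Lox, which cross-links collagen and elastin, fell from 66.4 and 64.8 FPKM to 7.84 and 8.45, and the protease inhibitor Timp1 fell from 164.7 and 174.9 to 46.3 and 38.7. Pcolce, Adamts1 and Loxl4 did not pass.

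The promoters of Mmp3 and Mmp13 are shown because these neighbouring metalloproteinase genes had 2 of the largest differences of their list, and those of Cxcl1 and Krt8 because these genes stand for the chemokines that were lower and the keratins that were higher. The windows hold 250 bases before and 50 bases after the RefSeq start in GRCm38.p6 and are written 5′ to 3′ on the strand of the gene, which is plus for Mmp3 at chr9:7445572-7445871, Mmp13 at chr9:7272264-7272563 and Cxcl1 at chr5:90890995-90891294, and minus for Krt8 at chr15:102004293-102004592. Capitals mark matches, on either strand, to TATAAA, to TGANTCA (the letters bound by AP-1) and to the consensus of NF-kB.
Mmp3: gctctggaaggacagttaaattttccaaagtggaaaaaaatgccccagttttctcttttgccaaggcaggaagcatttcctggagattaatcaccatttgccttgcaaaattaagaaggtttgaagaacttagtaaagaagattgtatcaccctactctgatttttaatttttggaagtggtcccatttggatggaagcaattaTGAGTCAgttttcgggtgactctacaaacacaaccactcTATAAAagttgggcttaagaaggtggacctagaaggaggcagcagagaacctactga
Mmp13: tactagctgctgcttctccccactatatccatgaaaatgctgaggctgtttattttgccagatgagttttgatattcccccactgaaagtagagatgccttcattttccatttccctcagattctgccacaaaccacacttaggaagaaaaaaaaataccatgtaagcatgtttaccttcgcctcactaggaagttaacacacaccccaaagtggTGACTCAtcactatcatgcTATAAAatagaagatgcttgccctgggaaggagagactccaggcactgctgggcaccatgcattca
Cxcl1: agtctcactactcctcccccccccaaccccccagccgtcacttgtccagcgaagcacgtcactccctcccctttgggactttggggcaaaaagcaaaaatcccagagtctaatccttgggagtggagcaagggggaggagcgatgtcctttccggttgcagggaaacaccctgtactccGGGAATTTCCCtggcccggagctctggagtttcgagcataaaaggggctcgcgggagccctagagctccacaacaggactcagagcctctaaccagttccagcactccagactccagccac
Krt8: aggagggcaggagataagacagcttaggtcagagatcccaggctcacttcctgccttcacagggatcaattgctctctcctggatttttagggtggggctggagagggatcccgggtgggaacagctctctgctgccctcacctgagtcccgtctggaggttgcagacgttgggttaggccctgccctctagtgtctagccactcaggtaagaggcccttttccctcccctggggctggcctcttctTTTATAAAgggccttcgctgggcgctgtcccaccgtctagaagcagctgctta
Both metalloproteinase windows held 1 TGANTCA match and 1 TATAAA match downstream of it. The Cxcl1 window held overlapping matches to the NF-kB consensus on its 2 strands, and the Krt8 window held overlapping matches to TATAAA on both strands. Over all 27025 promoters of the same length, 14.2% held TATAAA, 7.9% TGANTCA and 4.3% the NF-kB consensus. A match is a description of the letters and not a site. RefSeq entries were matched for 66.2% of the lower matrix genes, too few for a comparison of motif shares between gene groups, which is void for that reason. Dcn, Ccl2 and Dppa3 had no matching entry.

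**Figure D2:**
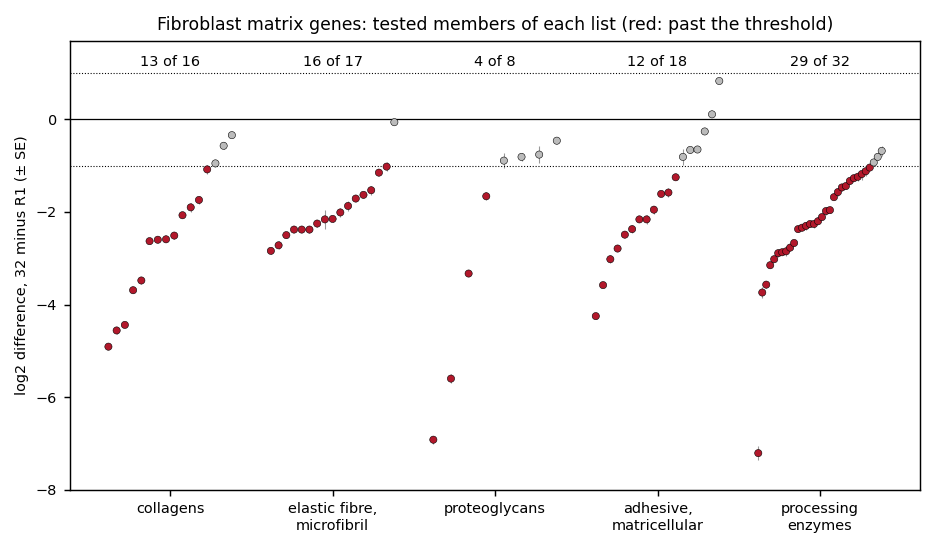
Log2 difference (32 minus R1, log2(FPKM + 1) scale) of each of the 91 tested fibroblast matrix genes by list, with bars of 1 SE from limma. Red points passed the threshold, the dotted lines mark a difference of 1 in either direction, and the numbers above give lower genes over tested genes, from 4 of 8 proteoglycans to 29 of 32 processing enzymes and inhibitors.

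Genes that mark fibroblasts but encode no matrix protein were lower in 38 of 43 tested cases, with a median of -2.40. Their summed level was 3111 and 3405 FPKM in R1 and 690 and 691 in 32. Prrx1, a transcription factor of limb and craniofacial mesenchyme, had 56.2 and 54.7 FPKM in R1 and 2.62 and 2.55 in 32 (-3.98 ± 0.04). The surface protein Thy1 had 77.0 and 79.2 against 8.99 and 8.93, and Pdgfra, a receptor for platelet-derived growth factor, 9.18 and 9.92 against 0.34 and 0.41. The leading members by size of difference were chemokine genes. Vim (vimentin), the intermediate filament of mesenchymal cells, remained at 212.7 and 214.5 FPKM in 32, against 672.8 and 704.1 in R1.

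The actin cytoskeleton and smooth muscle genes, which myofibroblasts use, moved in another way. Of 27 tested genes, 2 (7.4%, against 8.54% of all tested genes) were lower, namely Cald1 and Tgfb1i1. Another 4 (14.8%, against 1.60%) were higher, namely Cnn1, Actc1, Myl9 and Tagln. The median was 0.21, but it was -0.12 when libraries were scaled to the same total, so the list as a whole has no direction that holds under every scaling. Cnn1 (calponin) had 2.65 and 2.72 FPKM in R1 and 13.6 and 12.9 in 32 (1.95 ± 0.05). Actc1, the cardiac actin gene, had 1.27 and 1.21 in R1 and 6.66 and 6.18 in 32 (1.72 ± 0.08). Both kept their call under every scaling, whereas Myl9 (1.1) dropped to 0.78 with equal totals, and Tagln (1.03) fell short without the first library of 32 (0.96). Acta2, the smooth muscle actin gene, had 68.7 and 65.5 FPKM in R1 and 77.6 and 78.0 in 32 and did not pass, and its sign depended on scaling (0.21, or -0.12 with equal totals).

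Of the 1131 lower genes, 114 belonged to the fibroblast and contractile lists and 1017 did not. These lists held 179 chosen genes, so a gene outside them may still be one that fibroblasts express. Chemokine genes, a family examined after the values had been seen and of which Ccl2, Cxcl1, Cxcl5 and others also stand in the fibroblast identity list, were lower in 15 of 22 tested cases, with a median of -2.06. Ccl2, which attracts monocytes, had 464.1 and 471.9 FPKM in R1 and 6.08 and 6.33 in 32 (-6.02 ± 0.07, limma, adjusted p = 1.04e-06). Cxcl1, which attracts neutrophils, had 145.3 and 173.6 in R1 and 0.85 and 2.06 in 32, and Cxcl5 had 27.1 and 35.7 against 0.00 and 0.13. Interleukin and interleukin receptor genes were lower in 16 of 33 cases. Il1rl1, the receptor of IL-33, had 53.2 and 54.3 FPKM in R1 and 2.60 and 2.10 in 32, Il1r1 differed by -3.77 and Il6, also a fibroblast list member, by -3.72.

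The 12 largest decreases at 10 FPKM or more and outside the fibroblast lists included secreted and inflammatory genes. Lyz2, the lysozyme of macrophages and neutrophils, had 44.5 and 48.9 FPKM in R1 and 0.17 and 0.08 in 32 (-5.41 ± 0.13). Ereg and Areg, ligands of the EGF receptor, differed by -4.93 and -4.15. The angiotensin receptor gene Agtr2 had 22 and 24.5 FPKM in R1 and 0.16 and 0.11 in 32. Rarres2, Tmem176b, Ccl11, Tm4sf1 and Serpina3n differed by -4.40, -4.39, -4.30, -4.22 and -4.16. Lcn2, an iron-sequestering acute-phase gene, had 17.2 and 16.2 FPKM in R1 and was listed at 0 in both libraries of 32. The acute-phase gene Saa3 had 36.9 and 39.7 in R1 but unequal values of 3.06 and 0.27 in 32, and its SE of 0.54 was the largest of the 12. Ndufa4l2, a mitochondrial gene induced by low oxygen, had 49.9 and 49.8 FPKM in R1 and 1.35 and 2.70 in 32. All 12 genes were below R1 in S8 and T2 as well. In 16-6 all but Tm4sf1 were, with log2 differences from R1 of -0.45 (Tmem176b) to -4.19 (Saa3). Lcn2 had 0.29 and 0.10 FPKM in 16-6, whereas Tm4sf1 had 46.1 and 46.9 there against 35.1 and 42.8 in R1.

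Lyz2 belongs to the list of hematopoietic and endothelial markers, of which 5 of 13 tested genes were lower. The other lower members were Cd34, Cd14, Emr1 and Itgam. Emr1, the macrophage marker F4/80, had 3.22 and 3.46 FPKM in R1 and was listed at 0 in both libraries of 32. The summed level of the list was 143 and 151 FPKM in R1 and 45 in each library of 32. In the other iPSC lines it was 48 in each library of 16-6, 63 in S8 and 47 in T2. The globin genes Hba-a1 and Hbb-b1 were at 0 in all 4 libraries of R1 and 32. The endothelial gene Pecam1 had 13.9 and 12.9 FPKM in R1 and 11.0 and 11.5 in 32. Their part in the decrease of chemokines and interleukins was not tested.

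Interferon response and MHC class I genes were lower in 8 of 26 tested cases, with a median of -0.75. B2m, the light chain of MHC class I, had 477.5 and 405.2 FPKM in R1 and 63.5 and 64.9 in 32 (-2.76 ± 0.08), and the heavy chain gene H2-D1 had 43.1 and 43.7 against 9.93 and 8.42. Ifit1, an antiviral effector, had 3.52 and 3.45 in R1 and 0.07 in each library of 32. Gbp1 and Gbp2, guanylate-binding protein genes that interferon induces in many cells and that were chosen after their values were seen, went the other way (differences of 1.56 and 1.94).

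Glycolysis and hypoxia response genes were lower in 10 of 30 cases, with a median of -0.60. Both libraries of 32 lay below both of R1 for 28 of the 30, against 42.9% of all tested genes. Bnip3, a mitophagy receptor induced by hypoxia, had 117.3 and 114.4 FPKM in R1 and 20.2 and 20.8 in 32 (-2.44 ± 0.04). P4ha2, a collagen prolyl hydroxylase that also stands in the matrix lists, and Ndrg1 differed by -2.34 and -2.31. Vegfa, the angiogenic growth factor, had 51.8 and 50.5 FPKM in R1 and 9.96 and 9.90 in 32, and Egln3, an oxygen sensor, had 14.7 and 18.7 against 2.75 and 2.67. Among the other lines, 16-6 had 38.8 and 38.9 FPKM of Bnip3, S8 122.5 and T2 96.8.

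In the TGF-beta, Nodal, BMP and Id list, 10 of 31 genes were lower and 1 was higher, and with equal library totals 15 were lower. Inhba, which encodes an activin subunit, had 48.4 and 46.5 FPKM in R1 and 8.15 and 6.47 in 32, and the receptors Tgfbr3 and Tgfbr2 and the BMP antagonist Grem1 differed by -2.47, -2.01 and -2.23. Id1 and Id3, targets of BMP signalling that restrain differentiation, differed by -1.73 and -1.33. The Wnt list had 4 lower genes (Dkk3, Fzd1, Wnt5a and Dkk2) and 4 higher genes (T, Cdx1, Wnt8a and Wnt7b) among 28. Each count was 14.3% of the list, against 8.54% lower and 1.60% higher over all tested genes. In the LIF list, Osmr (-3.46), Lif (-2.56) and Jak2 (-1.07) were lower of 18, and Pim1 (1.05) was higher but fell short without the second library of R1 (0.96). The call of Pim1 was also lost with equal totals (0.72) and after quantile normalization (0.88), and that of Jak2 with median ratio scaling (-1.0, just short of the threshold) and after quantile normalization (-0.77). Lif itself had 18 and 19.4 FPKM in R1 and 2.19 and 2.49 in 32, while Stat3 had 50.1 and 49.9 against 39.4 and 42.1. The p53, cell cycle inhibitor and G1 cyclin list had 4 lower genes of 25 (16.0%), led by Ccnd2 and Gadd45g (-1.77 and -1.72). The Hippo list had 2 of 21, Axl and Wwtr1. That share of 9.5% is near the 8.54% of all tested genes, so the list as a whole did not stand out.

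No gene of the lists for the tissue of origin was called higher in 32. The largest differences, 0.86 (adipocyte progenitor list) and 0.93 (adipocyte list), lay under the fold minimum. Of 16 tested adipocyte progenitor genes, 9 were lower, with a median of -1.19 and 1 gene above R1 at an unadjusted p below 0.05, namely Cd24a. This gene, with 69.2 and 61.6 FPKM in R1 and 118.9 and 120.1 in 32, did not pass. Cd34 had 26.6 and 27.3 FPKM in R1 and 1.2 and 1.41 in 32, and Ly6a (Sca-1) had 79.2 and 92.5 against 10.9 and 12.3. The lower members include genes that fibroblasts also use, among them Pdgfra, Pdgfrb and Dlk1. Of 12 tested adipocyte genes, 3 were lower and 4 lay above R1 at an unadjusted p below 0.05 (Lipe, Scd1, Acaca and Fasn). With median ratio scaling, 2 of the 12 were called higher. Fabp4, the fatty acid carrier of adipocytes and macrophages, had 9.70 and 10.1 FPKM in R1 and was listed at 0 in both libraries of 32. The adipocyte-defining genes Pparg, Adipoq, Plin1 and Lep stayed under 1 FPKM in all 4 libraries and were not tested.

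**Figure D3:**
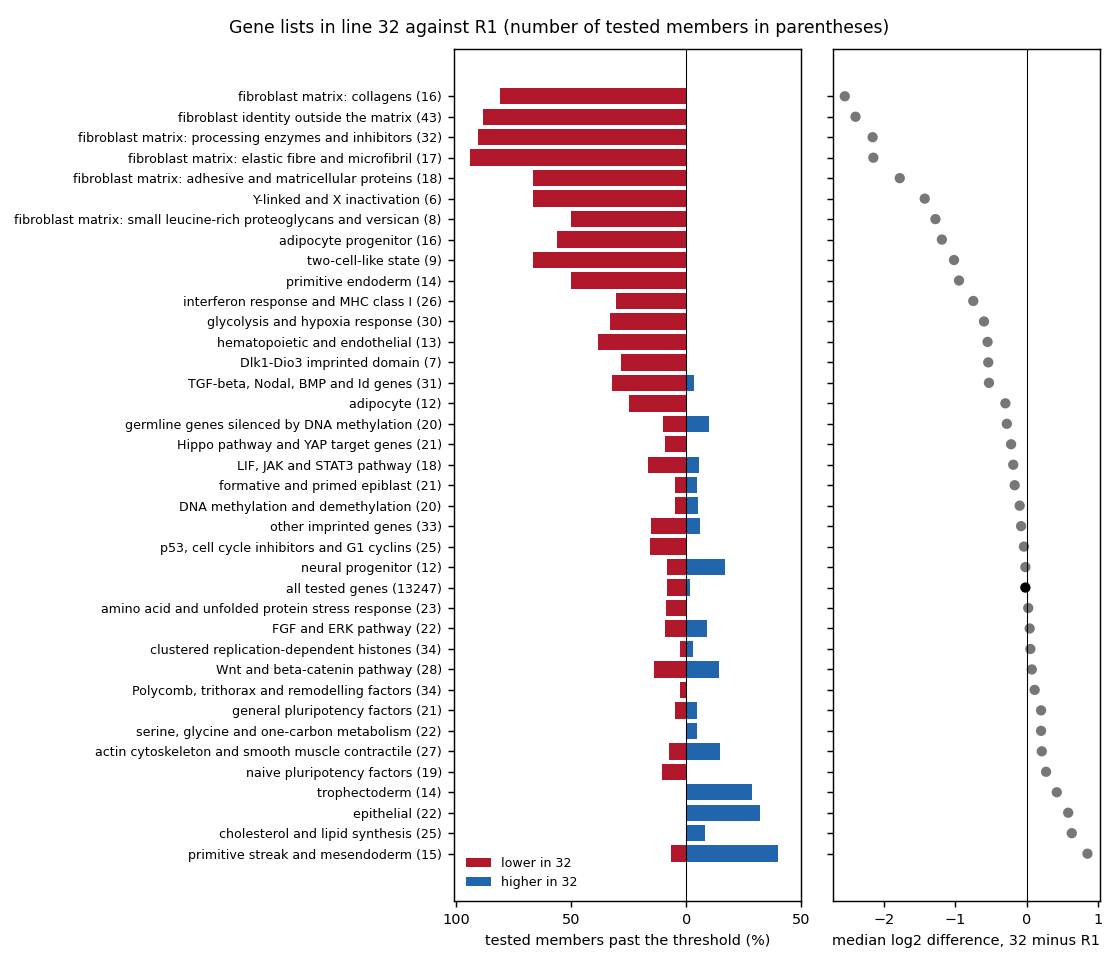
Share of tested members called lower (red, left) or higher (blue, right) in each gene list with at least 5 tested members, beside the median log2 difference (32 minus R1), ordered by that median; the number of tested members is in parentheses and all tested genes are shown in black. The 6 fibroblast lists have medians of -1.28 to -2.55 and lie among the 7 lowest, and the primitive streak, cholesterol and epithelial lists stand at the bottom with medians of 0.85, 0.63 and 0.58.

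The labelled cell type was checked against the pluripotency lists. All 21 general factors were measured in every library, and 1 was lower and 1 was higher. Pou5f1 (Oct4) had 605.3 and 635.6 FPKM in R1 and 660.6 and 668.2 in 32, and Sox2 had 262.8 and 262.6 against 272.3 and 280.4. Their differences of 0.10 and 0.07 were not past the threshold, and both turned negative with equal totals (-0.24 and -0.26). FPKM per gene does not separate RNA of the inducible Oct4, Sox2, Klf4 and c-Myc copies in 32 from RNA of the resident genes. Nanog had 177.2 and 174.2 FPKM in R1 and 321.3 and 326.8 in 32, or 0.88 ± 0.04, just under the fold minimum. Lin28a, Gdf3 and Sall4 lay at 0.72, 0.69 and 0.55, and Fgf4 and Dnmt3l at -0.47 and -0.63.

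Dppa3 (Stella), which protects maternal methylation marks in the zygote, was higher in 32, with 50.4 and 55.7 FPKM in R1 and 248.6 and 230.5 in 32 (2.16 ± 0.07, limma, adjusted p = 1.41e-05). Zfp42 (Rex1), a naive-state marker, was lower, with 540.6 and 544.0 in R1 and 258.2 and 277.5 in 32. Its difference of -1.02 lay at the threshold, and it was -0.96 without the first library of 32. Among 19 naive factors, Spp1 (osteopontin), which fibroblasts and macrophages also secrete, was the other lower gene, with 1784 and 2053 FPKM in R1 and 318.3 and 318.8 in 32. Klf4, Esrrb and Klf2 differed by -0.22, -0.03 and -0.01, where Esrrb and Klf2 turned positive with median ratio scaling (0.04 and 0.07), and Tcfcp2l1 and Manba by 0.78 and 0.92. Klf5, Tbx3, Nr5a2, Prdm14 and Tcl1 lay between 0.18 and 0.31, and all of these but Prdm14 turned negative with equal totals (-0.04 to -0.15).

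Genes of the primitive streak, the site of gastrulation in the embryo, were higher in 6 of 15 tested cases and lower in 1 (Snai1, -1.76, which is also a fibroblast gene). The median was 0.85. T (brachyury, chr17) had 1.87 and 2.28 FPKM in R1 and 18.8 and 17.5 in 32 (2.64 ± 0.09, limma, adjusted p = 1.34e-05). Fgf8, which patterns the streak, had 2.24 and 1.65 against 16.2 and 18.4, and Eomes, a T-box factor of mesendoderm, 2.91 and 2.93 against 14.4 and 15.3. All 3 were low in R1 and between 14.4 and 18.8 FPKM in 32, with no overlap. T had 11.8 and 11.6 FPKM in 16-6, 0.58 in S8 and 2.85 in T2. Fgf8 had 20.8 and 22.6 in 16-6, 8.74 in S8 and 28.3 in T2. The summed level of the list was 48 and 46 FPKM in R1 and 89 and 95 in 32. It was 137 and 134 in 16-6, 36 in S8 and 72 in T2, so a sum above R1 was also seen in 16-6 and T2 but not in S8. The sums include Snai1, which was lower in 32 and had 54.4 and 50.3 FPKM in 16-6, so they do not measure the other members alone. Cdx1, a posterior homeobox gene, had 0.58 and 0.12 FPKM in R1 and 5.29 and 6.84 in 32, Wnt8a had 0.87 and 0.65 against 6.04 and 6.5, and Mixl1 0.97 and 0.48 against 2.62 and 2.97. The call of Mixl1 was lost without the second library of R1, at 0.95. Axin2, a general Wnt target, had 3.93 and 3.80 FPKM in R1 and 3.80 and 3.87 in 32, with overlapping groups and a sign that depended on scaling (-0.01, or 0.36 after quantile normalization). Among formative and primed epiblast genes, 1 of 21 was higher, Fgf5 with 6.56 and 6.94 FPKM in R1 and 22.2 and 24.0 in 32 (1.64 ± 0.07), and 1 was lower, Fst. With median ratio scaling or quantile normalization 3 of the 21 were higher, and Fst fell short after quantile normalization (-0.98).

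Epithelial genes were higher in 7 of 22 cases, with a median of 0.58. The summed level of the list was 676 and 686 FPKM in R1 and 1161 and 1167 in 32. It was above R1 in the other iPSC lines too, with 1009 and 1018 in 16-6, 1362 in S8 and 1526 in T2. Krt8 and Krt18, the paired keratins of simple epithelia, led the list. Krt8 had 8.89 and 7.55 FPKM in R1 and 68.8 and 71.2 in 32 (2.95 ± 0.07, limma, adjusted p = 6.16e-06), and Krt18 had 7.34 and 8.69 against 48.8 and 41.3. The tight junction gene Cldn7 had 11.8 and 13.6 in R1 and 47.6 and 35.6 in 32. Dsp, Ovol2, Cldn6 and Krt19 differed by 1.36, 1.24, 1.19 and 1.16. Cdh1 (E-cadherin) and Epcam differed by 0.51 and 0.58 and did not pass. With libraries scaled to the same total, 4 of the 22 were called and the median was 0.25. Of the trophectoderm list, 4 of 14 genes were higher, namely Krt8, Krt18, Eomes and Tcfap2c, while Cdx2 stayed near 1 FPKM in 32.

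**Figure D4:**
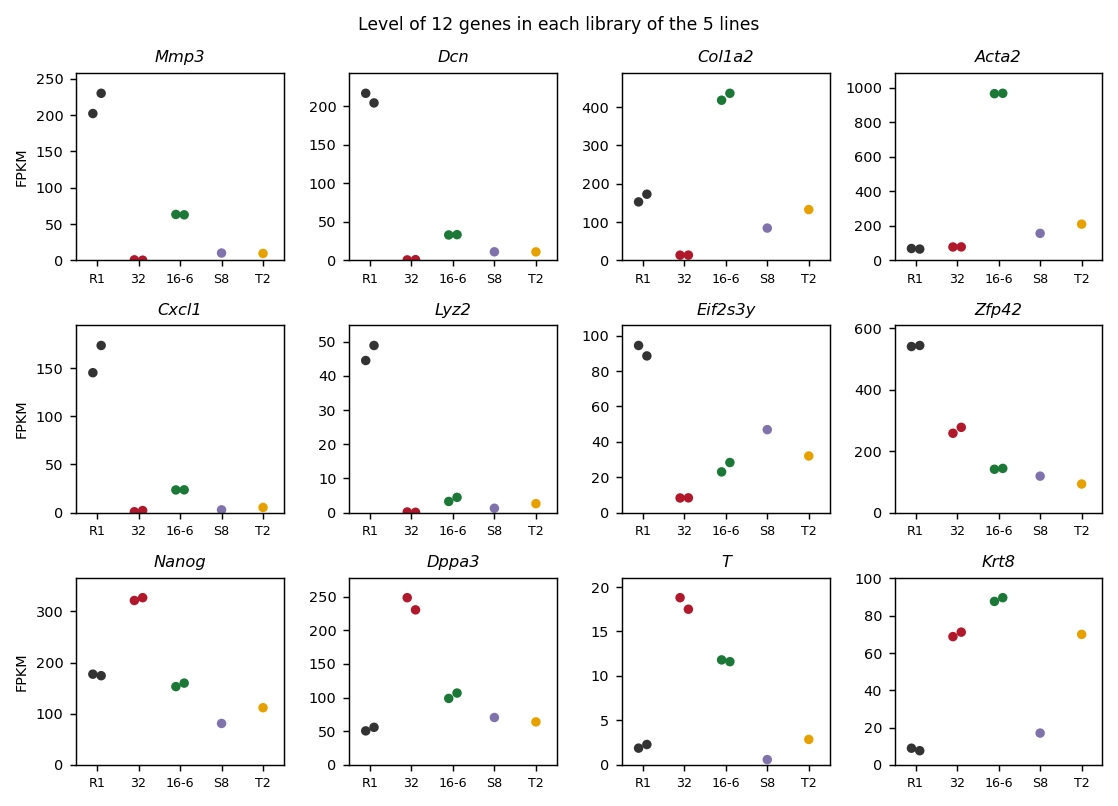
FPKM (linear axes from 0, each gene with its own scale) of 12 genes in each library of R1, 32, 16-6, S8 and T2, one point per library. In Mmp3, Dcn, Cxcl1, Lyz2 and Eif2s3y the libraries of 32 lie lowest of all lines, and in Nanog, Dppa3 and T they lie highest, while Krt8 in 32 lies near T2 and below 16-6.

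Other lineage markers moved in part. The neural list had 2 higher genes of 12, Olig2 with 0.02 and 0.00 FPKM in R1 and 4.77 and 4.23 in 32, and Nes with 10 and 10.2 against 26.4 and 25.8, and 1 lower gene, Ncam1. Olig2 was also present in 16-6 (4.75 and 4.47 FPKM), S8 (6.33) and T2 (8.66). Of the primitive endoderm list, 7 of 14 genes were lower (Thbd, Pdgfra, Dab2, Col4a1, Col4a2, Sparc and Srgn). The lineage factors Gata4 and Gata6 were not among them. All 7 can also be made by stromal or blood cells, and the part of such cells in the decrease was not tested. Of 9 tested genes of the 2-cell-like state, 6 were lower, 5 of the Zscan4 cluster and Gm8300. Zscan4a had 4.04 and 4.07 FPKM in R1 and 0.84 and 0.80 in 32, and the Zscan4 genes are near-identical copies whose reads cannot be assigned with certainty. The call of Zscan4f was lost without the first library of 32 (-0.99) and that of Gm8300 without the second library of 32 (-0.92) or of R1 (-0.74), and 3 of the 6 calls were made with median ratio scaling and 1 after quantile normalization.

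Germline genes had 2 higher members, Rhox6 with 1.29 and 0.92 FPKM in R1 and 10.1 and 10.8 in 32 and Rhox9 with 1.52 and 1.56 against 11.2 and 10. Both are homeobox genes of the X-linked reproductive cluster. The 2 lower members of 20 were Sycp3 and Smc1b (-1.09 and -1.06), and Sycp3 fell short without the first library of 32 (-0.97) or the second of R1 (-0.93). With equal totals 5 of the 20 were lower, and after quantile normalization neither of the 2 was. Among imprinted genes, Meg3, the maternally expressed RNA of the Dlk1-Dio3 domain, had 151.6 and 158.9 FPKM in R1 and 72.7 and 73.9 in 32 (-1.07 ± 0.04, and short of the threshold with median ratio scaling), and its paternally expressed neighbour Dlk1 had 14.6 and 14.9 against 0.61 and 0.63. The summed level of the Dlk1-Dio3 list was 370 and 388 FPKM in R1 and 214 and 231 in 32. In the other lines it was 526 and 538 (16-6), 212 (S8) and 371 (T2). H19 and Igf2, neighbours on chromosome 7 that are expressed from opposite parental alleles, both were lower, with 228.2 and 232.7 against 22.1 and 23.6 FPKM for H19 and 110.5 and 116.0 against 14.3 and 13.4 for Igf2. The part of fibroblasts, which also use Dlk1, in these decreases was not tested. Sfmbt2 and Magel2 were higher (1.03 and 1.18), but Sfmbt2 fell short without the second library of 32 (0.98) or of R1 (0.97), and with equal totals neither gene passed (0.70 for Sfmbt2 and 0.95 for Magel2).

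Genes of cholesterol and lipid synthesis were higher in 2 of 25 cases, but both libraries of 32 lay above both of R1 in 24 of the 25 (39.0% over all tested genes), and the median was 0.63. Fdps, which makes farnesyl pyrophosphate, had 100.3 and 95.4 FPKM in R1 and 224.3 and 226.8 in 32 (1.2 ± 0.05), and Lss, which makes lanosterol, differed by 1.06. Without the second library of 32 or the first of R1 the difference of Lss was 0.99 or 0.96. With equal totals the median was 0.30 and neither gene passed, at 0.86 for Fdps and 0.73 for Lss. Mat2a, which makes the methyl donor S-adenosylmethionine, was the one higher gene of 22 in the one-carbon list, with 286.2 and 291.8 FPKM in R1 and 617.7 and 621.1 in 32 (1.1). Its call was lost with equal totals (0.76), with equal totals over longer genes (0.89) and after quantile normalization (0.78). The DNA methylation, Polycomb and histone lists had at most 1 gene called in each direction on the values as deposited, but the histone list had 4 lower genes with equal totals and 5 higher genes after quantile normalization.

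Of the 12 largest increases at 10 FPKM or more outside the fibroblast lists, 6 (Krt8, Krt18, T, Fgf8, Rhox6 and Rhox9) are described above. Rpl29, a ribosomal protein gene, had 0.59 and 0.86 FPKM in R1, 93.4 and 76.8 in 32 and 34.6 to 47.1 in the other lines, so that R1 stood apart from every iPSC line. Its reads may be shared with processed pseudogenes, which was not tested, so the value is uncertain. Apoa2, an apolipoprotein gene, had 0.44 and 0.64 in R1 and 43.9 and 40.7 in 32. It too was above R1 in every iPSC line, with 24.5 and 26.2 in 16-6, 37.9 in S8 and 17.0 in T2. Mt4, a metallothionein of stratified epithelia, had 1.34 and 0.86 against 19.2 and 20.4, and Gm949 and Car4 (a carbonic anhydrase) differed by 2.84 and 2.24. Rpph1, the RNA of RNase P, had 5.2 and 6.76 in R1 and unequal values of 30.5 and 50.2 in 32. It lacks a poly(A) tail, and libraries of polyadenylated RNA measure it poorly.

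Of 6 tested genes of the Y-linked and X inactivation list, 4 were lower (Ddx3y, Eif2s3y, Uty and Xist), and Kdm5d (-0.86) and Tsix (-0.96) did not pass. Eif2s3y had 94.5 and 88.6 FPKM in R1 and 8.25 and 8.32 in 32, and Ddx3y had 23.8 and 24.7 against 1.04 and 1.88. Uty differed by -1.42. Xist, which silences one X chromosome in female cells, had 27.3 and 21.6 FPKM in R1 and 8.04 and 8.66 in 32. The summed level of the list was 160 and 150 FPKM in R1 and 22 and 24 in 32. In the other lines it was 62 and 69 (16-6), 68 (S8) and 60 (T2), all below R1. On the other chromosomes, genes at 10 FPKM or more had median differences from 0.01 (chromosome 8) to 0.16 (chromosome 1).

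Short genes were called on few fragments. Of 208 tested genes with a locus under 200 bases, 11 (5.29%, against 8.54% of all tested genes) were lower and 19 (9.13%, against 1.60%) were higher, and the median number of implied fragments in the highest library of the called genes was 2. Snord65, a small nucleolar RNA gene, was listed at 0 in both libraries of R1 and at 2086 and 2057 FPKM in 32, and Snord91a at 1019 and 1956 in R1 and 0 in 32. The call of Snord91a was lost without either library of either line, with limma adjusted p of 0.0975 to 0.122. Their large FPKM come from the division by a very short length.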

How the data were processed

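RNA-Seq of polyadenylated RNA had been run paired-end on 8 libraries, of which the 4 of R1 and 32 were compared. The deposited values are FPKM per gene that the authors made with TopHat 2.0.4, keeping unique alignments, and Cufflinks on UCSC genes of mm9. The submitters' processing notes give Cufflinks 2.0.0, and the methods name a later release. Every FPKM was divided by 12725.7, so that the median library total became 1000000. Fragments were implied from the deposited confidence limits. Values were analysed as log2(FPKM + 1) in limma 3.58.1 (R 4.3.3) with a variance trend, 1 mean per line over all 8 libraries and 3 residual degrees of freedom, for genes at 1 or more in at least 1 of the 4 libraries, with Benjamini-Hochberg adjustment. The procedure was tested on simulated data.

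The members and gene lists were chosen with earlier results of these data known. Named genes were the 12 largest differences in each direction outside the fibroblast lists (mean of at least 10, locus of at least 200 bases), the 3 largest in each direction of every other list and of the short genes, all general and naive pluripotency factors, and genes marked as chosen later. Alternatives covered scaling, pseudocount, filter, fold minimum, libraries in the fit and leaving out each library. Promoters came from RefSeq (GRCm38.p6), and no mm9 coordinate was converted. Some items are not reported here.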

Additional observations from a re-analysis of the deposited data

Results flagged for a closer look

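In 22 of the named genes, line 32 lay below R1 and the other replicated iPSC line, 16-6, lay above R1, both past the threshold, and the contrast of 32 with 16-6 was itself past it in limma (largest Benjamini-Hochberg adjusted p = 2.87e-04). Both comparisons share the R1 libraries. The log2 differences of 32 minus 16-6 were -4.31 for Col1a1, -4.87 for Col1a2, -3.60 for Fbn1, -4.28 for Ltbp2, -4.52 for Bgn, -5.14 for Tnc, -2.41 for Sparc, -3.04 for Col4a1 and -3.36 for Col4a2 among structural matrix genes. They were -4.77 for Serpinf1, -4.09 for Lox and -3.25 for Timp1 among enzymes and inhibitors. Fibroblast and contractile genes followed with -4.49 for Thy1, -2.84 for Lgals1, -2.87 for Snai1, -4.14 for Inhba, -3.0 for Cald1 and -2.85 for Tgfb1i1. The remaining differences were -3.88 for Axl, a receptor tyrosine kinase, -3.09 for the Wnt inhibitor gene Dkk2, -2.99 for the cyclin gene Ccnd2 and -2.39 for the cell cycle inhibitor gene Cdkn2b, whose difference from R1 fell short without the second library of 32 (-0.97). Over all tested genes, 138 showed this pattern and 1 the opposite one.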

How the results depend on the processing

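The 1131 lower and 212 higher genes became 616 lower with a level of 1 required in all 4 libraries, and 466 lower and 131 higher with a level of 10 in at least 1. A pseudocount of 0.1 gave 1831 and 351, and one of 10 gave 217 and 52 (43 matrix genes lower instead of 74). Without a fold minimum there were 4447 and 3938 (1 matrix gene higher), and with a minimum of 4-fold 293 and 35 (48 matrix genes lower). Higher genes numbered 95 with equal library totals, 123 with equal totals over genes of at least 200 bases (an alternative chosen after seeing the data) and 388 after quantile normalization. Leaving out 1 library gave 1121 to 1203 lower genes, 215 to 238 higher genes and 73 to 76 lower matrix genes, and no called gene changed sign, but 965 of the lower and 146 of the higher genes were called in all 4 of these fits.

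Replicate numbers did not pair the samples (correlations of replicate deviations 0.00101, -0.119 and 0.0343), and a fit with the replicate number as a block gave 1131 and 212.

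Of 223 named genes, 20 changed sign under some alternative, none of them past the threshold. With equal totals these were Pou5f1 (-0.24), Sox2 (-0.26), Utf1 (-0.12), Fbxo15 (-0.11), Dppa2 (-0.13), Trim71 (-0.17), Rif1 (-0.05), Jarid2 (-0.23), Klf5 (-0.12), Tbx3 (-0.15), Nr5a2 (-0.05), Tcl1 (-0.04), Mras (-0.03), Acta2 (-0.12), Cyr61 (-0.23) and Gata4 (-0.07). With equal totals over longer genes they were Pou5f1 (-0.11), Sox2 (-0.14), Dppa2 (-0.01), Trim71 (-0.05), Jarid2 (-0.11), Tbx3 (-0.03), Cyr61 (-0.10) and Gata4 (-0.01), and after quantile normalization Pou5f1 (-0.21), Sox2 (-0.20), Utf1 (-0.07), Jarid2 (-0.11), Klf5 (-0.02), Cyr61 (-0.05) and, upwards, Axin2 (0.36). Klf2 turned positive with median ratio scaling (0.07, or 0.02 outside the fibroblast lists), without the first library of 32 (0.11) and without the second of R1 (0.01), and Esrrb with median ratio scaling (0.04) and without the first library of R1 (0.00). Axin2 also did so with median ratio scaling (0.05, or 0.02 outside the fibroblast lists) and without the first library of 32 (0.00) or of R1 (0.01), and Ltbp4 with median ratio scaling (0.02). Without 1 library Gata4 ranged from -0.01 to 0.18. The cause was not tested. Depth limits genes under about 1 FPKM and short genes.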
